A study of Mus musculus with 2 samples.

Results

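The 8 Wnt ligand genes described here, Wnt3, Wnt4, Wnt5a, Wnt6, Wnt7b, Wnt10a, Wnt10b and Wnt16, were chosen by symbol from the 27998 genes of the count matrices, and all 8 were found in the matrices of both mice. They were followed across the basal states, the stages of the interfollicular epidermis (IFE) and the hair follicle cells of newborn skin. Epidermal cells were profiled by single-cell RNA sequencing in male C57BL/6J mice with the genotype Chrm3 KO at postnatal day 0, with 1 library from each of 2 mice. Chrm3 encodes the M3 muscarinic acetylcholine receptor, and the study asks what this receptor does in epidermal differentiation. Both mice carry the knockout. Wild-type libraries were not analysed here, and all levels below are those of Chrm3 KO epidermis, with no test of the genotype. The knockout is not limited to the keratinocytes (KCs), which also developed in animals without the receptor. The skin was split into epidermis and dermis before the cells were taken, and only a few dermal cells entered the libraries.

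Wnt proteins are secreted, lipid-modified ligands that act over short distances. They bind Frizzled receptors together with LRP5 or LRP6 and stabilize beta-catenin, which then works with TCF and LEF factors at target genes. Other Wnt proteins, of which WNT5A is the best known, act mostly through ROR and RYK receptors without beta-catenin. In skin, Wnt signals from the epidermis start the hair placode, and later they hold the basal layer in a proliferating state and drive the matrix and hair shaft. Porcupine attaches the lipid and Wntless carries the ligand to the cell surface, whereas secreted inhibitors such as the SFRP, DKK and WIF1 proteins limit the signal.

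The ligand genes lie on 6 chromosomes of GRCm38 (mm10), in the GENCODE annotation. Wnt6 (chr1:74771892-74785322, plus strand) and Wnt10a (chr1:74791516-74804179, plus strand) are neighbours with 6193 bases between them. Wnt7b (chr15:85535437-85582473) and Wnt10b (chr15:98770712-98778150) are both on the minus strand of chromosome 15, far apart, and Wnt10b lies 11706 bases from Wnt1. Wnt3 is at chr11:103774150-103817957, 24328 bases from Wnt9b, Wnt4 at chr4:137277489-137299726, Wnt5a at chr14:28504750-28527448 and Wnt16 at chr6:22288227-22298522, all on the plus strand. An antisense gene overlaps Wnt5a (Gm2670), Wnt6 (Gm29539) and Wnt7b (AU022754). Gm2670 had 16 and 23 UMIs in the 2 mice, Gm29539 had 12 and 10, and AU022754 had 132 and 227.

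Wnt3, Wnt10b and Wnt16 formed the 2 ligand pairs whose levels went together most closely across cell classes, so the 250 bases upstream of their start sites are shown, from RefSeq on GRCm38.p6, read 5′ to 3′ on the strand of the gene. The intervals are chr11:103773925-103774174 for Wnt3, chr15:98778151-98778400 for Wnt10b and chr6:22287977-22288226 for Wnt16. Capitals mark GGGCGG (GC box) and CCAAT on either strand.
Wnt3: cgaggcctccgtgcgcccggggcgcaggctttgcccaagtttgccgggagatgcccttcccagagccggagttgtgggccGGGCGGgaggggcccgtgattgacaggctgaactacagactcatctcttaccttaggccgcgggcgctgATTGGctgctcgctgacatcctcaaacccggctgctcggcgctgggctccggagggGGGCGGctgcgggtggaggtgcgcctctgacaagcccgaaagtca
Wnt10b: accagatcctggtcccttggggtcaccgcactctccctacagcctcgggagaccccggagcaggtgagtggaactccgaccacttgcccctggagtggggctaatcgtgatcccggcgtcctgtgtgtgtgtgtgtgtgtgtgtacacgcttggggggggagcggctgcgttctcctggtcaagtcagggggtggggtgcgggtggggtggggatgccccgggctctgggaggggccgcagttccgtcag
Wnt16: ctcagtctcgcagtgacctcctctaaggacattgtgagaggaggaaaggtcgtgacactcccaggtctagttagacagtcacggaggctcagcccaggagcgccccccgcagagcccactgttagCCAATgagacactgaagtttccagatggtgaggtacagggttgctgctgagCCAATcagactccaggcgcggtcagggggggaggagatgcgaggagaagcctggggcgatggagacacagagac
Of the 8 ligands, 5 had an upstream sequence in the table (these 3, Wnt4 and Wnt6). GGGCGG occurred at 2 positions upstream of Wnt3, 8 of Wnt4 and 6 of Wnt6, and at none upstream of Wnt10b or Wnt16. Of 32851 upstream sequences of the same length, 32.7% held it on either strand. CCAAT occurred once upstream of Wnt3 and at 2 positions upstream of Wnt16, and 33.9% of all sequences held it. Neither form of the TCF/LEF motif searched, CTTTGAA or CTTTGAT, nor TATAAA was found on either strand in any of the 5 sequences, while 4.46%, 3.21% and 12.4% of all sequences held them. None of the 5 motifs was in all 3 sequences shown. Their GC content was 68% for Wnt3, 66.8% for Wnt10b and 59.2% for Wnt16, and 85.2% and 79.6% for Wnt4 and Wnt6, against a median of 52.4% for all sequences.

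After the filter of the study's methods (900 to 7700 genes and under 10% mitochondrial UMIs), 7607 of 10816 barcodes of mouse 1 and 11881 of 15867 of mouse 2 remained, with 95048258 and 148843409 unique molecular identifiers (UMIs, 1 per captured transcript) and a median of 10480 and 10577 per cell. Scrublet called 2.30% and 3.89% of these cells doublets, and the kept cells of the libraries shared 34 barcodes. Chrm3 had 13 and 19 UMIs in the kept cells. Cell classes were rebuilt from marker genes without using any gene of the Wnt pathway list, so a name such as basal or melanocyte stands for cells that are like that type. The classes hold 7874 interfollicular and 8696 follicle cells of 19488, of which 4748 keratinocytes stayed unnamed. Krt14, the keratin of basal KCs, averaged 19391 and 11521 CPM (UMIs of the gene for every 1e+06 UMIs of the class) in the H19-high and Sox4-high basal states, the resting basal KCs. It was among the markers that named interfollicular cells, so its level is no separate check of the tissue label. Markers of dermal mesenchyme defined 107 cells (Col3a1 707 CPM), of which 12.1% were called doublets.

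Resting basal KCs and Shh-expressing follicle cells held a larger share of several of these ligands than of all UMIs. Resting basal KCs held 27.9% ± 0.9 (SD, n = 2 mice) of the Wnt3 UMIs, 31.0% ± 0.7 of those of Wnt4, 29.999% ± 0.931 of those of Wnt10a and 30.01% ± 0.93 of those of Wnt16, against 9.78% ± 0.77 of all UMIs. Shh-expressing follicle cells, the signalling cells of the placode and hair bulb, held 37.0% ± 3.3 of the Wnt10b UMIs, 19.7% ± 0.6 of Wnt3, 19.4% ± 1.7 of Wnt6 and 15.2% ± 0.1 of Wnt10a, against 9.32% of all UMIs. Wnt7b went the other way in the follicle, with 17.9% of its UMIs in resting basal KCs and 2.79% in Shh-expressing cells. These shares depend both on how many cells of a class were captured and on the level per cell.

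Wnt5a UMIs came mostly from the class named inner root sheath and hair shaft, which also holds dividing cells. Cells of the inner root sheath and hair shaft held 54.2% ± 3.0 of its UMIs while holding 5.72% of all UMIs, and dermal mesenchyme held 13.3% ± 1.7 while holding 0.229%. Resting basal KCs held 0.342% of them. Over all kept cells, Wnt5a had 635 UMIs in mouse 1 and 1086 in mouse 2, and Wnt10b had 588 and 999. The remaining ligands had between 2782 (Wnt3, mouse 1) and 52539 UMIs (Wnt4, mouse 2).

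**Figure D1:**
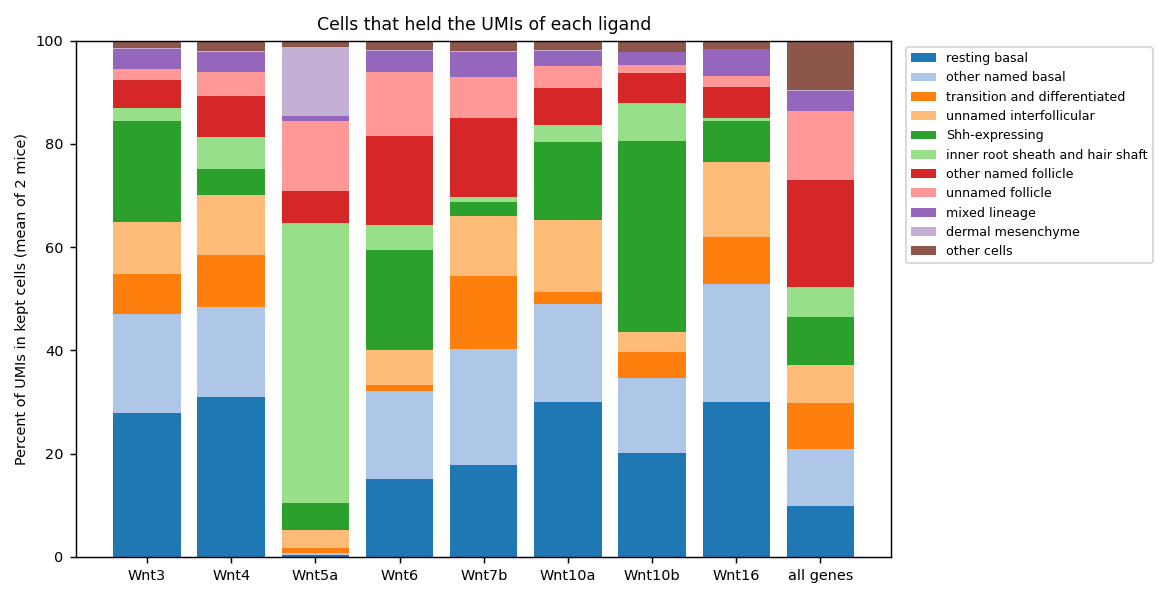
Share of each ligand's UMIs (percent, y axis) by group of cells, as stacked bars of the mean of the 2 mice, with all genes as the last bar. Resting basal cells take 31.0% of the Wnt4 bar and 0.342% of the Wnt5a bar, and inner root sheath and hair shaft cells take 54.2% of the Wnt5a bar.

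The ligands fell into 4 patterns across the 15 named keratinocyte classes. Wnt4, Wnt10a and Wnt16 were highest in resting basal KCs. Wnt3 and Wnt10b were high in resting basal KCs and again in Shh-expressing follicle cells. Wnt6 and Wnt7b were held at like levels in several basal states, with Wnt6 also high in Shh-expressing cells and Wnt7b highest in Ptch1-positive basal KCs. Wnt5a was high in the inner root sheath and hair shaft, and at no more than 4.80 CPM in the other named classes of KCs. Levels are CPM, and ligands are not ranked against each other, because a count in these libraries does not give a level per transcript length.

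Wnt4, a ligand known for its roles in kidney and gonad development, stood at 1233 and 1168 CPM (mouse 1 and mouse 2) in the H19-high basal state, a set of basal KCs marked by the imprinted H19 RNA. It stood at 972 and 930 CPM in the Sox4-high basal state. Both mice thus gave the higher level in the H19-high state, and the ranges did not overlap. Its lowest level among named KC classes was 93.9 and 118 CPM, in dividing follicle cells. A UMI of Wnt4 was found in 99.8% and 99.4% of H19-high cells (median depth 10593.5 UMIs) and in 26.5% and 34.1% of melanocyte-like cells (9321), which serve here as the background of free RNA.

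Wnt10a, the gene mutated in several ectodermal dysplasias with missing teeth and thin hair, stood at 114 and 125 CPM in the H19-high state and 113 and 111 CPM in the Sox4-high state. Its lowest level, in differentiated KCs, was 2.43 and 4.08 CPM. That level is under its level in melanocyte-like cells (6.48 and 8.75 CPM). Wnt16, known for its part in the thickness of cortical bone, stood at 232 and 155 CPM in the Sox4-high state and 212 and 146 CPM in the H19-high state. Mouse 1 was above mouse 2 for Wnt16 in 12 of 15 classes, with a median ratio of 1.28 and a highest ratio of 1.71, whereas the median ratios of the other ligands were between 0.895 and 1.04. Its lowest level was 6.40 and 5.48 CPM, in the inner root sheath and hair shaft.

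Wnt3, a ligand of the beta-catenin branch known from limb outgrowth and hair shaft formation, stood at 101 and 100 CPM in Sox4-high basal KCs and at 57.9 and 75.7 CPM in Shh-expressing cells. Among the other follicle classes, the sebaceous one aside, its lowest value was 4.29 CPM (a cluster led by Tgfb2, mouse 1). Its highest was 15.9 CPM (inner root sheath and hair shaft, mouse 1). Sebaceous follicle cells had Wnt3 at 2.06 and 8.08 CPM. They are a follicle class of 435 cells led by Prlr and Aldh3a1. The sebaceous gland cluster (258 cells) is separate and not among the named KC classes. Wnt10b, an early marker of the hair placode, stood at 24.9 and 26.2 CPM in Shh-expressing cells, 16.1 and 18.0 CPM in the Sox4-high state and 8.24 and 10.8 CPM in the H19-high state. Both ligands were thus higher in the Sox4-high than in the H19-high state in each mouse. The 29 cells with an interferon response had Wnt10b at 28.1 and 20.3 CPM, from 5 and 2 UMIs, which sets no order against the Shh-expressing cells.

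Wnt6, long known from the epidermis and the ureteric bud, stood at 180 and 170 CPM in Shh-expressing cells. In the resting, S-phase and Ptch1-positive basal classes it was between 120 and 140 CPM, and its lowest level was 4.35 and 6.59 CPM, in differentiated KCs. Wnt7b, known from lung and bone growth, stood at 170 and 155 CPM in Ptch1-positive basal KCs, which express a receptor and target of Hedgehog signalling. It was between 97.4 and 136 CPM in the other basal states and the transition KCs, apart from the interferon cells (90.0 and 71.1 CPM), and was lowest in the inner root sheath and hair shaft, at 8.34 and 9.73 CPM.

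Wnt5a stood at 69.5 and 63.3 CPM in the inner root sheath and hair shaft, while the next highest value among named KC classes was 4.80 CPM (sebaceous follicle cells, mouse 1, 7 UMIs). In dermal mesenchyme it stood at 368 and 447 CPM, from 77 and 158 UMIs. The resting basal states had 1 UMI each in mouse 1 and 2 each in mouse 2. Neighbouring classes in the order of mean levels had overlapping mice in 5 of 14 steps for Wnt4 and Wnt7b, 6 for Wnt3, 7 for Wnt10a and Wnt10b, 8 for Wnt6 and Wnt16, and 9 for Wnt5a.

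**Figure D2:**
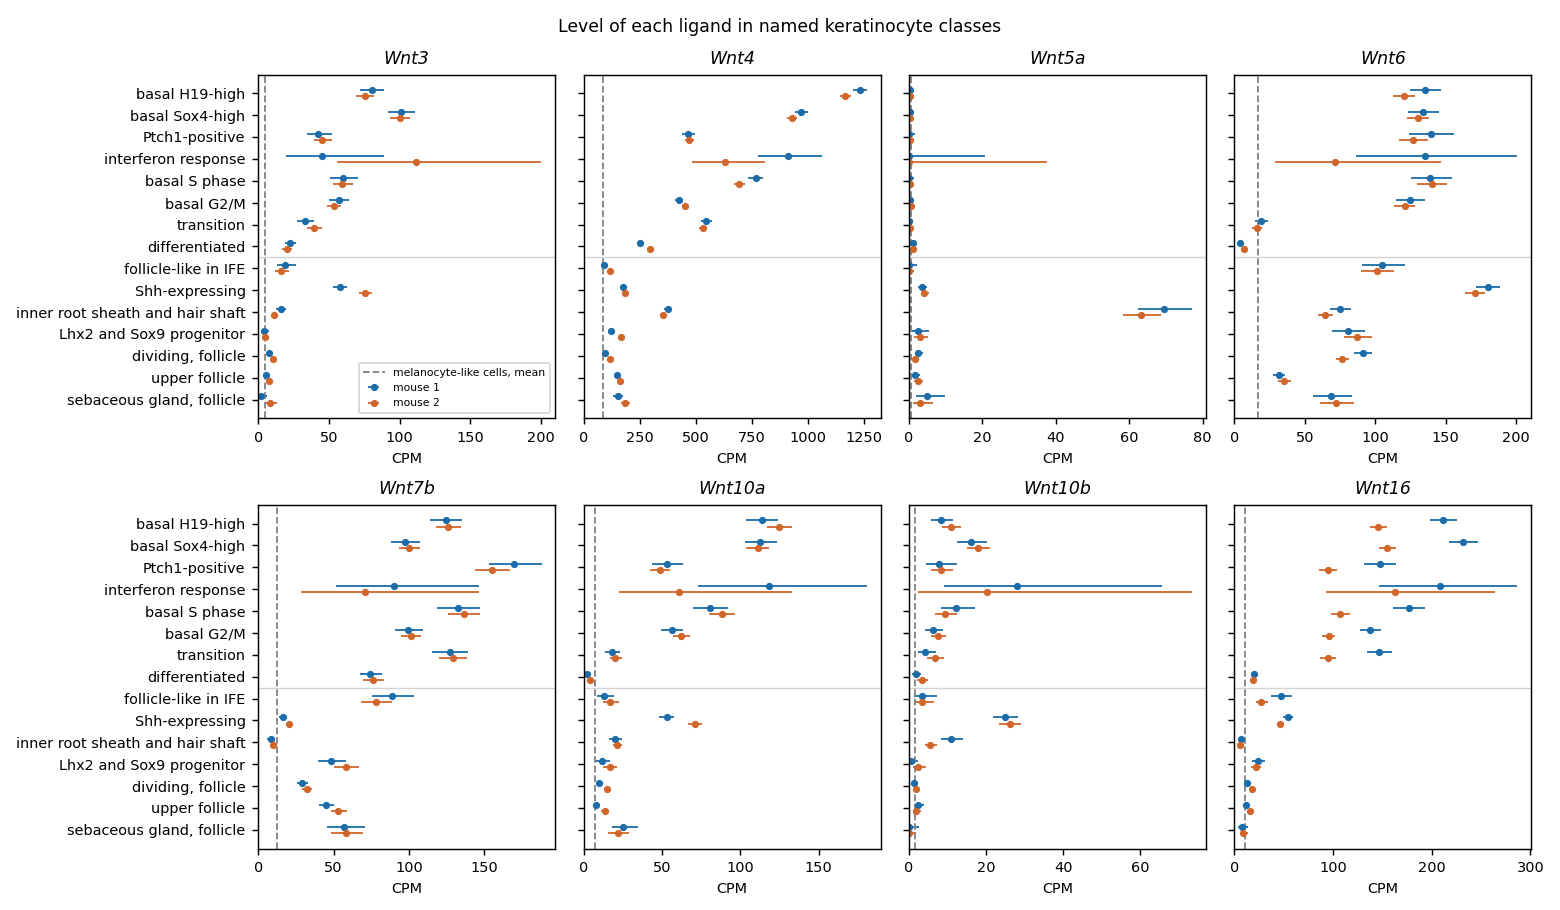
Level of each ligand (CPM, x axis of each panel) in the named keratinocyte classes (y axis), with 1 point per mouse, an exact 95% Poisson interval as the bar, and the mean of melanocyte-like cells as a dashed line. Wnt4 is at 1233 and 1168 CPM in H19-high basal cells, Wnt10b peaks in Shh-expressing cells at 24.9 and 26.2 CPM, and Wnt5a stands at 69.5 and 63.3 CPM in the inner root sheath and hair shaft. The class labelled Lhx2 and Sox9 progenitor is the Tgfb2-led cluster of the text.

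Cells that should lack the ligands set the background of free RNA. In melanocyte-like cells, of which 11.1% were called doublets, the ligand levels were between 5.04% (Wnt3) and 9.53% (Wnt6) of the highest named KC class, except for Wnt5a at 0.712%. Levels near this background are not read as expression. Among them are Wnt3 and Wnt10b in the Tgfb2-led, upper and sebaceous follicle classes. Others are Wnt16 in the inner root sheath, the upper follicle, and the sebaceous and dividing follicle cells, and Wnt10b in dividing follicle cells and differentiated KCs. The same holds for Wnt4 in dividing follicle cells and in interfollicular cells with follicle markers, Wnt6 in transition and differentiated KCs, Wnt10a in differentiated KCs and the upper follicle, Wnt7b in the inner root sheath and Shh-expressing cells, and Wnt5a in the basal and transition classes. For Wnt10b the background also held 2 and 4 UMIs in the T cell-like cells (25.9% of its highest level).

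Among the named KC classes, single cells of the basal states held UMIs of more of the 8 ligands than other cells. Some basal states were only slightly above transition KCs, and the background of free RNA was not subtracted. With every cell thinned to 3000 UMIs, a cell held UMIs of 2.50 ± 0.06 ligands in the H19-high state and 2.50 ± 0.14 in the Sox4-high state (mean ± SD, n = 2 mice). The mean was 2.20 ± 0.09 in S phase, 1.85 ± 0.19 in Ptch1-positive and 1.72 ± 0.01 in G2/M basal KCs. It was 1.59 ± 0.07 in transition KCs and 0.905 ± 0.080 in differentiated KCs. In the follicle it was 1.42 ± 0.06 in Shh-expressing cells, 1.12 ± 0.07 in the inner root sheath and hair shaft and 0.816 ± 0.075 in the Tgfb2-led cells.

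The first comparison asks how the ligands change as KCs leave the basal layer. In transition KCs, which still carry basal keratins and have begun to make Krt10, Wnt6 and Wnt10a were already 7.43-fold and 6.02-fold lower than in resting basal KCs (the mean of the H19-high and Sox4-high states), with Wnt6 at its background in melanocyte-like cells. Wnt3, Wnt10b and Wnt4 were lower by 2.47-, 2.44- and 1.99-fold, and Wnt16 by 1.54-fold. Wnt7b was the one ligand that was higher, by 1.14-fold. Values given as -fold, here and below, are ratios of mean CPM at plain library sizes. The log2 fold changes and p-values come from the edgeR fit, which rescales library sizes, so they can differ in size from these ratios. By edgeR on UMI sums per mouse and class, 6 of the 8 ligands were lower and 1 was higher at an adjusted p under 0.05, against 13.2% of all 12122 genes tested that were lower and 15% that were higher. The median log2 fold change of the 8 was -1.02, against 0 over all genes.

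Wnt6 was at 19.1 and 15.8 CPM in transition KCs and at 135 and 125 CPM in resting basal KCs (log2 fold change -2.84 ± 0.12, SE, adjusted p = 2.4e-14). The transition level of Wnt6 overlaps its melanocyte-like level (14.9 and 18.5 CPM), so its fold sets no ratio between cells. Wnt10a, its neighbour on chromosome 1, was at 18.0 and 20.3 CPM against 113 and 118 CPM (-2.51 ± 0.18, adjusted p = 1.2e-10). For both genes, the mice lay far apart between the classes and close together within them. Wnt3 was at 32.9 and 39.2 against 90.7 and 87.7 CPM (-1.21 ± 0.15, adjusted p = 1.3e-06), and Wnt4 at 547 and 533 against 1103 and 1049 CPM (-0.92 ± 0.12, adjusted p = 2.6e-06). Wnt10b was at 4.22 and 6.66 against 12.2 and 14.4 CPM (-1.12 ± 0.27, adjusted p = 0.0026). The smallest calls were Wnt16 (147 and 94.6 against 222 and 150 CPM, -0.57 ± 0.21, adjusted p = 0.045) and Wnt7b (127 and 129 against 111 and 113 CPM, 0.27 ± 0.09, adjusted p = 0.029). Both of these lost their call under other settings: Wnt16 in DESeq2 (adjusted p = 0.094) and at a finer cluster resolution (0.18), and Wnt7b with no filter on low counts (0.070), plain library sizes (0.084) or thinned cells (0.13). Wnt5a had 0 and 2 UMIs in transition KCs, too few to show a difference at this depth.

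In differentiated KCs, which make Krt10 at high level, most ligands fell further in CPM, and Wnt7b fell too. CPM is a share of UMIs, and these cells were deeper (median 18711.5 UMIs, against 10593.5 in H19-high and 7988 in Sox4-high cells). A lower CPM thus need not mean fewer transcripts per cell, which was not tested. Wnt10a was 35.5-fold, Wnt6 23.8-fold, Wnt16 9.43-fold and Wnt10b 5.27-fold lower than in resting basal KCs. Wnt3 was 4.18-fold, Wnt4 3.92-fold and Wnt7b 1.49-fold lower. In all, 7 of 8 ligands were lower and 1, Wnt5a, was higher, against 27.5% of all genes lower and 31.1% higher, and the median of the 8 was -1.98 on the log2 scale against 0.02 over all genes.

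Wnt10a fell to 2.43 and 4.08 CPM (-4.92 ± 0.24, adjusted p = 6.5e-15), which is under its melanocyte-like level. Wnt6 fell to 4.35 and 6.59 CPM (-4.34 ± 0.14, adjusted p = 6.0e-18), also under its melanocyte-like level (14.9 and 18.5 CPM). For these genes the differentiated level is thus within the background, and the folds set no ratio between cells. Wnt10b, at 1.74 and 3.30 CPM, was near its melanocyte-like level (mean 1.65 CPM), so its fold sets no ratio either. Wnt16 fell to 19.99 and 19.5 CPM (-3.01 ± 0.26, adjusted p = 3.1e-10), a level at which the mice no longer differed as they did in the basal layer. Its mean in melanocyte-like cells was 10.8 CPM, so background can make up part of that level. Wnt4 fell to 254 and 295 CPM (-1.75 ± 0.13, adjusted p = 1.9e-11) and Wnt7b to 74.4 and 76.3 CPM (-0.35 ± 0.09, adjusted p = 0.0021), both well over their melanocyte-like levels (80.2 and 93.2 CPM, and 9.94 and 15.2 CPM). Wnt5a was at 1.04 and 1.10 CPM, from 6 and 7 UMIs, against 0.228 and 0.261 CPM (adjusted p = 0.0026), and this call was lost with thinned cells (adjusted p = 0.31).

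The fall of these ligands was also seen without the classes, when interfollicular cells were binned by keratin UMIs. These cells were chosen by clusters of all cells and included called doublets. The bins were set by the share of suprabasal keratins (Krt1 and Krt10) among Krt1, Krt10, Krt5 and Krt14 UMIs. From cells under 5% to cells over 80%, Wnt10a went from 91.0 and 94.4 to 2.36 and 5.99 CPM, Wnt6 from 123 and 110 to 6.75 and 15.1 CPM and Wnt16 from 186 and 120 to 22.3 and 18.3 CPM. Wnt4 went from 830 and 816 to 275 and 297 CPM, Wnt3 from 68.2 and 62.4 to 22.96 and 20.4 CPM and Wnt10b from 8.03 and 8.55 to 2.36 and 3.85 CPM. Wnt7b changed least, from 125 and 125 to 73.6 and 69.2 CPM, and at 50 to 80% it still stood at 117 and 101 CPM. The share of cells with a Wnt7b UMI was 69.3% and 73.2% under 5%. It was 70.3% and 72.3% over 80%, where cells were deeper (median 19127 and 19855 UMIs, against 10574 and 12358.5). The mice differed in how their cells fell into the bins: 48.9% of mouse 1 and 22.8% of mouse 2 were under 5%.

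**Figure D3:**
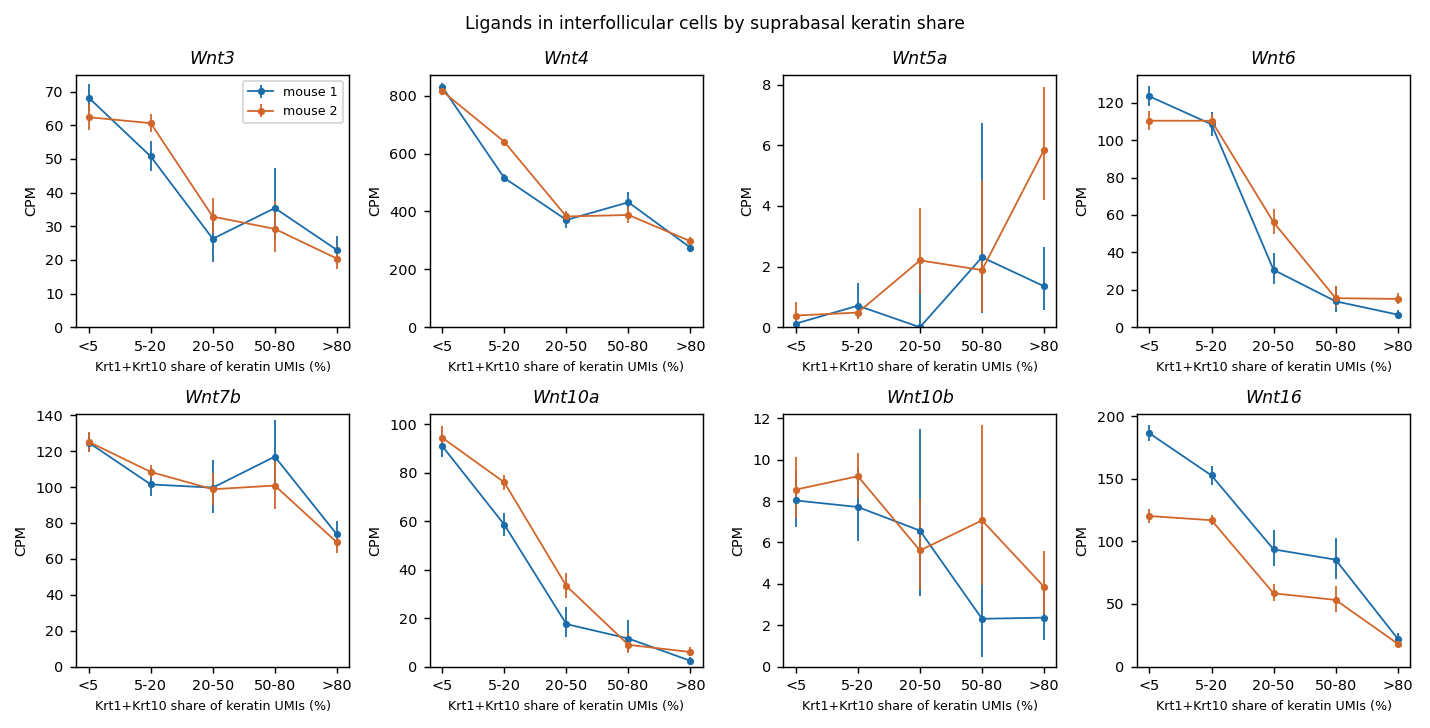
Level of each ligand (CPM, y axis) in interfollicular cells in 5 bins of the suprabasal keratin share (x axis, percent of Krt1, Krt10, Krt5 and Krt14 UMIs), with 1 line per mouse and exact 95% Poisson intervals. Wnt10a drops from 91.0 and 94.4 CPM in the lowest bin to 2.36 and 5.99 CPM in the highest, while Wnt7b is at 125 and 125 CPM in the lowest and 73.6 and 69.2 CPM in the highest.

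Granular cells could not be tested, since the cluster led by Lce1 genes held 50.9% called doublets and was left unnamed. Cells with at least 20 UMIs of Lor, a cornified envelope gene, that were not called doublets numbered 58 and 59. In these, Wnt7b stood at 54.0 and 54.3 CPM, Wnt4 at 263 and 329 CPM, Wnt16 at 12.8 and 15.4 CPM and Wnt10a at 8.23 and 10.1 CPM. Wnt7b, Wnt4 and Wnt6 (24.7 and 32.9 CPM) were over the melanocyte-like level in both mice, and Wnt16 and Wnt10a were close to it. These cells also held follicle and cycling transcripts. Lhx2, Krt28 and Mki67 averaged 79.2, 77.6 and 69.1 CPM, against 14.4, 14.7 and 12.1 CPM in differentiated KCs. The ligand levels are thus not read as those of granular cells alone, and the source of these transcripts was not tested.

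Within the resting basal layer, the H19-high and Sox4-high states differed little in these ligands. Wnt4 and Wnt7b were lower in the Sox4-high state, by 1.26-fold and 1.27-fold, and 2 of 8 ligands were called lower and 0 higher, against 6.25% of all genes lower and 4.73% higher. The median of the 8 was -0.09 on the log2 scale, against 0.01 over all genes. Before adjustment, edgeR gave Wnt10b a p of 0.0081 as the one further ligand under 0.05. Its level was 16.1 and 18.0 CPM in the Sox4-high and 8.24 and 10.8 CPM in the H19-high state (0.72 ± 0.25, adjusted p = 0.065, or 0.015 with the mouse as a block).

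Wnt7b was at 97.4 and 100 CPM in the Sox4-high state and 124 and 126 CPM in the H19-high state (-0.44 ± 0.10, adjusted p = 0.0062). Wnt4 differed by -0.44 ± 0.14 (adjusted p = 0.038, and 0.094 with plain library sizes). The call for Wnt7b was lost with thinned cells (adjusted p = 0.067). Wnt3, Wnt5a, Wnt6, Wnt10a and Wnt16 had adjusted p-values between 0.296 and 0.998.

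Dividing basal KCs held less of 3 ligands in S phase and of 6 in the class named G2/M than resting ones. Of the 804 cells of that class, 469 were in a cluster led by replication histone genes such as Hist1h1b, which are expressed in S phase, and 335 in one led by the mitotic genes Ube2c and Cenpf, so G2/M here also takes in cells with an S-phase signature. In S phase, Wnt3 was 1.49-fold, Wnt4 1.47-fold and Wnt10a 1.37-fold lower. In G2/M, Wnt4 was 2.45-fold, Wnt10a 1.95-fold, Wnt10b 1.93-fold, Wnt3 1.61-fold and Wnt16 1.60-fold lower. In S phase 3 of 8 ligands were called lower and 0 higher, against 4.03% and 9.26% of all genes, and in G2/M 6 were lower and 0 higher, against 15.6% and 20.2%. The median of the 8 was -0.51 in S phase and -0.81 in G2/M on the log2 scale, and over all genes it was within 0.01 of 0 in both.

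Wnt4 was at 768 and 696 CPM in S phase (-0.63 ± 0.12, adjusted p = 5.5e-04) and 425 and 454 CPM in G2/M (-1.41 ± 0.13, adjusted p = 1.8e-09), against 1103 and 1049 CPM at rest. Wnt3 was at 60.1 and 59.3 CPM in S phase (-0.65 ± 0.15, adjusted p = 0.0033) and 56.9 and 53.6 CPM in G2/M (-0.81 ± 0.14, adjusted p = 6.2e-05). Wnt10a was at 80.6 and 88.0 CPM (-0.53 ± 0.15, adjusted p = 0.017) and then 56.3 and 62.2 CPM (-1.09 ± 0.15, adjusted p = 2.4e-06). For all 3 genes the mice of the dividing classes lay below those of the resting classes without overlap. Wnt6, not called in G2/M, did so there too (124.9 and 120.9 against 134.6 and 125.2 CPM). In S phase Wnt6 and Wnt7b, also not called, lay above without overlap. How many of all genes lay apart in this way was not counted. Ptch1 averaged 195 CPM in S phase and 274 CPM in G2/M, against 65.2 CPM (H19-high) and 94.4 CPM (Sox4-high) at rest. The Ptch1-positive basal class, outside the resting reference, had Mki67 at 15.0 CPM, against 574 CPM in G2/M. Its means were 469 CPM for Wnt4, 43.9 CPM for Wnt3 and 50.8 CPM for Wnt10a. The G2/M means were 440, 55.2 and 59.2 CPM. Whether the lower levels go with division was not tested. G2/M cells had the higher median depth, 15964 UMIs against 10593.5 and 7988 in the resting states, and the part of depth in these differences was not tested beyond the fit on thinned cells, which kept all of these calls for Wnt4, Wnt3 and Wnt10a.

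Pairing the sums by mouse changed some of these calls. With the mouse as a block, Wnt16 (177 and 107 CPM in S phase against 222 and 150 CPM, -0.49 ± 0.21) went from an adjusted p of 0.14 to 5.8e-04, and Wnt7b (132 and 136 against 111 and 113 CPM, 0.19 ± 0.09) from 0.20 to 0.044, so that 5 ligands were called in S phase. Over all 12122 genes the block raised the calls in S phase from 1611 to 2525, so the gain was not particular to the ligands. In G2/M, Wnt6 (125 and 121 against 135 and 125 CPM, -0.21 ± 0.09) went from 0.080 to 0.0077. Wnt16 was lower in S phase within each mouse, although the values of the 2 mice overlapped between the classes. Wnt7b in G2/M, at 99.5 and 101 CPM (-0.28 ± 0.09, adjusted p = 0.019), was the one called difference whose sign turned in an alternative, to 0.09 at the finer resolution (adjusted p = 0.50).

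**Figure D4:**
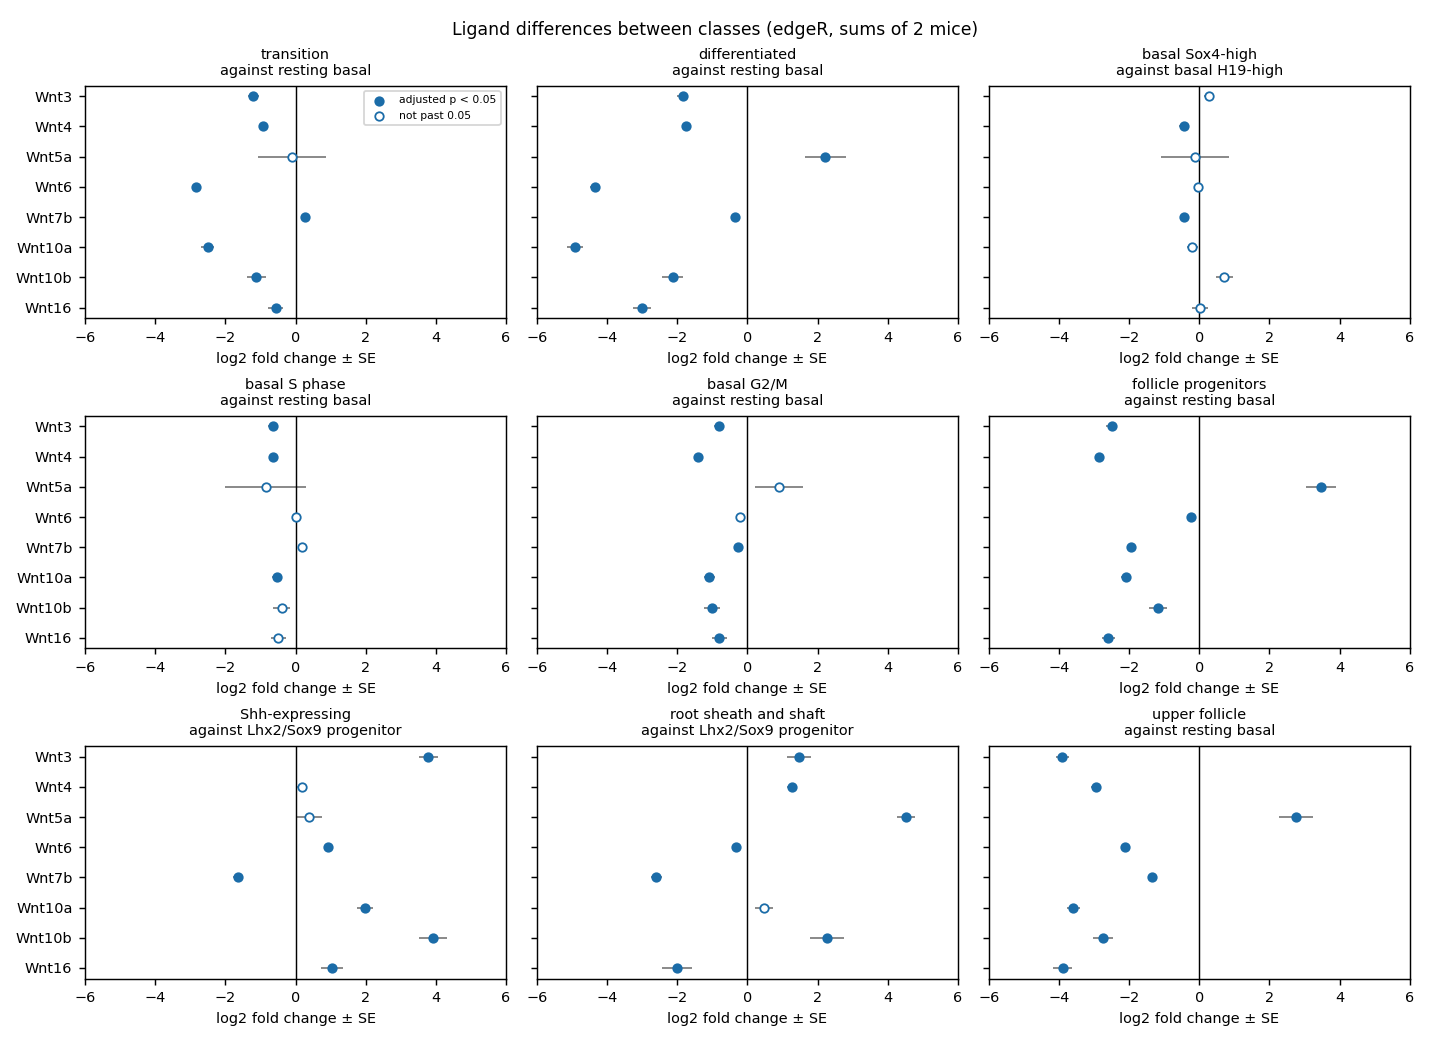
Log2 fold change of each ligand (x axis, with its standard error as the bar) in the comparisons between classes, with filled points at an adjusted p under 0.05 by edgeR. Wnt6 and Wnt10a lie at -2.84 and -2.51 in transition cells and at -4.34 and -4.92 in differentiated cells, and Wnt7b lies at 0.27 and -0.35.

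The follicle comparisons begin with 2 sets of follicle cells. Shh-expressing cells (1747 cells) express Shh at 166 CPM and Lhx2 at 799 CPM. The cluster named from the list of Lhx2 and Sox9 progenitor markers (633 cells) is led by Tgfb2, Hsd11b1 and Apoe. Of that list, Tgfb2 and Nfatc1 were among its 10 leading genes, and the mean log2 enrichment of the list was 0.018. Its Lhx2 (285 CPM) and Sox9 (218 CPM) were lower than in an unnamed follicle cluster (477 and 370 CPM). The cluster is thus called Tgfb2-led, by its leading gene, here. Against resting basal KCs, the average of these sets held less Wnt4, Wnt16, Wnt7b, Wnt10a and Wnt3, by 6.62-, 5.07-, 3.12-, 3.03- and 2.50-fold. For Wnt3 this average joins unlike sets. Shh-expressing cells had 57.9 and 75.7 CPM of it, which overlaps the H19-high state (80.2 and 75.3 CPM), and Tgfb2-led cells had 4.29 and 4.62 CPM. Wnt6 and Wnt10b had equal mean levels on both sides. In the fit, which averages logarithms of the 2 follicle sets, 7 ligands were lower and 1 higher, against 24.5% of all genes lower and 27.4% higher, and the median of the 8 was -2.02 against 0.02 over all genes.

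Wnt4 was at 149 and 176 CPM in the follicle sets against 1103 and 1049 CPM (-2.87 ± 0.10, adjusted p = 7.8e-17), and Wnt7b at 32.4 and 39.5 against 111 and 113 CPM (-1.96 ± 0.08, adjusted p = 1.0e-15). Wnt16 was at 39.2 and 34.2 against 222 and 150 CPM (-2.59 ± 0.19, adjusted p = 4.0e-11). In these 3 genes both follicle sets lay under both resting states. Wnt6, at 130 and 129 CPM against 135 and 125 CPM, and Wnt10b, at 12.7 and 14.2 against 12.2 and 14.4 CPM, were also called lower (-0.24 ± 0.08 and -1.18 ± 0.27, adjusted p = 0.010 and 6.5e-04). For these 2 ligands the mean levels of the mice overlapped between the sides. The fit averages logarithms, in which the low level of the Tgfb2-led cells counts for more than in a mean. It also rescales library sizes, and the part of each step in these calls was not tested apart. The call of Wnt6 was lost with plain library sizes (adjusted p = 0.34) and with thinned cells (0.11). Wnt5a was at 3.01 and 3.56 CPM against 0.228 and 0.261 CPM (adjusted p = 4.1e-07).

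Within the follicle, most of the ligands were higher in the Shh-expressing than in the Tgfb2-led cells, and Wnt7b was lower. Wnt10b and Wnt3 were 18.7-fold and 15.0-fold higher in the Shh-expressing cells, Wnt10a 4.38-fold, Wnt16 2.21-fold and Wnt6 2.08-fold. Wnt7b was 2.89-fold lower. Its level in Shh-expressing cells is near its melanocyte-like level (mean 12.6 CPM), so this fold sets no ratio between cells. Wnt7b was not particular to the Tgfb2-led cells, with means of 57.5 CPM in the sebaceous and 49.0 CPM in the upper follicle class. In all 5 of 8 ligands were higher and 1 lower, against 13.4% of all genes higher and 13.8% lower, and the median of the 8 was 0.98 on the log2 scale against -0.01 over all genes.

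Wnt3 was at 57.9 and 75.7 against 4.29 and 4.62 CPM (3.78 ± 0.27, adjusted p = 9.0e-11), and Wnt10b at 24.9 and 26.2 against 0.429 and 2.31 CPM, where the Tgfb2-led cells had 1 and 8 UMIs (3.91 ± 0.39, adjusted p = 4.0e-08). The levels of both in the Tgfb2-led cells are close to those in melanocyte-like cells (3.46 and 6.68 CPM, and 1.73 and 1.58 CPM), so these folds set no ratio between cells. Wnt10a was at 53.0 and 71.1 against 11.6 and 16.7 CPM (1.98 ± 0.23, adjusted p = 2.5e-07), and Wnt6 at 180 and 170 against 80.7 and 87.4 CPM (0.94 ± 0.11, adjusted p = 3.7e-07). Wnt7b was at 16.3 and 20.6 against 48.5 and 58.3 CPM (-1.65 ± 0.13, adjusted p = 3.8e-10), a gap that both mice showed. Wnt4 (175 and 185 against 123 and 167 CPM, 0.19 ± 0.14, adjusted p = 0.38) was not called here. It was called higher when follicle cells were gated on Shh UMIs in place of the clusters within the follicle (0.71, adjusted p = 2.1e-04).

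The class named inner root sheath and hair shaft, after the inner cell layers that build the hair, was set apart by Wnt5a. Mki67 averaged 549 CPM in it and 595 CPM in dividing follicle cells. Krt28 averaged 640 CPM and Lhx2 423 CPM in it. The class thus also holds dividing cells, and which of its cells held Wnt5a was not tested. Against the Tgfb2-led cells, Wnt5a was 24.3-fold higher, Wnt10b 6.01-fold, Wnt3 3.02-fold and Wnt4 2.53-fold, while Wnt7b was 5.91-fold and Wnt16 3.84-fold lower. Here 4 of 8 ligands were higher and 3 lower, against 19.1% of all genes higher and 20.4% lower, and the median of the 8 was 0.87 on the log2 scale against -0.02 over all genes. Wnt5a stood at 69.5 and 63.3 against 2.57 and 2.88 CPM (4.52 ± 0.26, adjusted p = 4.3e-12).

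Wnt4 was at 378 and 355 against 123 and 167 CPM (1.28 ± 0.15, adjusted p = 1.3e-07), the highest level of Wnt4 among named follicle classes. Wnt7b was at 8.34 and 9.73 against 48.5 and 58.3 CPM (-2.60 ± 0.15, adjusted p = 8.4e-13) and Wnt16 at 6.40 and 5.48 against 24.0 and 21.6 CPM (-2.00 ± 0.43, adjusted p = 5.5e-04). Both are at or under their melanocyte-like levels in the inner root sheath. Wnt3 was at 15.9 and 10.96 CPM (1.48 ± 0.34, adjusted p = 0.0012) and Wnt10b at 10.9 and 5.59 CPM (2.26 ± 0.48, adjusted p = 5.5e-04). In the Tgfb2-led cells, Wnt3 and Wnt10b were near their melanocyte-like levels. The folds of Wnt7b, Wnt16, Wnt3 and Wnt10b thus set no ratio between cells. The call of Wnt6 (75.1 and 64.6 against 80.7 and 87.4 CPM, -0.33 ± 0.12, adjusted p = 0.027) was lost in 5 alternatives, and Wnt10a (0.47 ± 0.26, adjusted p = 0.16) was not called.

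In the upper follicle, marked by Krt79, nearly all of the ligands were low. Against resting basal KCs, Wnt3 was 13.4-fold, Wnt16 13.3-fold, Wnt10a 10.7-fold, Wnt4 6.89-fold, Wnt10b 6.09-fold, Wnt6 3.86-fold and Wnt7b 2.29-fold lower. In all 7 of 8 were lower and 1 higher, against 23.5% of all genes lower and 30% higher, and the median of the 8 was -2.84 on the log2 scale against 0.04 over all genes. Wnt7b (44.8 and 53.2 CPM, -1.36 ± 0.10, adjusted p = 1.5e-11) and Wnt6 (31.9 and 35.4 CPM, -2.12 ± 0.10, adjusted p = 1.3e-14) were over their melanocyte-like levels (9.94 and 15.2 CPM, and 14.9 and 18.5 CPM), while Wnt3 (5.83 and 7.48 CPM, -3.90 ± 0.19, adjusted p = 1.1e-14) was near it, as were Wnt10a, Wnt10b and Wnt16, so the folds of these 4 set no ratio between cells. Wnt5a, at 1.71 and 2.35 CPM (adjusted p = 4.9e-05), was called higher, and the call was lost with thinned cells (adjusted p = 0.062).

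Some unnamed cells stood out for their ligands. A cluster of 65 interfollicular cells led by Pcdh20, Tgfb2 and Fbn2 had Wnt3 at 186 and 172 CPM and Wnt16 at 251 and 288 CPM, over every named class in the same mouse, and 0 UMIs of Wnt10b in both mice. Its 95% Poisson intervals for Wnt3, 142 to 238 CPM and 130 to 223 CPM, cover counting error only. The cluster was singled out after its values were seen and was not tested. The unnamed follicle cluster with the higher Lhx2 and Sox9, led by Egfl6 and Rnase12 (801 cells), had Wnt5a at 17.9 and 14.2 CPM, and one led by Krt6a (207 cells) had it at 15.1 and 20.01 CPM, both over every named KC class but the inner root sheath and hair shaft. The dermal marker Col3a1 averaged 11.7 CPM in the Krt6a-led cluster and 0 CPM in the Egfl6-led one. Dermal mesenchyme is high in Wnt5a, and whether dermal RNA adds to the level of the Krt6a-led cluster was not tested. The 337 interfollicular cells with follicle markers are a named class and did not stand out. They had Wnt6 at 105 and 101 CPM, Wnt7b at 88.5 and 78.0 CPM and Wnt4, near its background, at 93.0 and 119 CPM.

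The rest of the Wnt pathway was read from a list of 80 genes, of which 58 were tested. In transition KCs 6 were higher and 19 lower, against 15% and 13.2% of all genes, and in differentiated KCs 11 were higher and 31 lower, against 31.1% and 27.5%. Lef1, the nuclear partner of beta-catenin, was at 23.4 and 22.7 CPM in transition KCs against 150 and 160 CPM at rest (-2.60 ± 0.17, adjusted p = 2.0e-11). Of the other ligands, Wnt3a was at 1.69 and 1.62 against 17.9 and 19.9 CPM (-3.44 ± 0.25, adjusted p = 1.1e-10), and Wnt7a, at 7.43 and 9.07 CPM in resting basal KCs, had 0 UMIs in differentiated KCs of both mice. Of the 4 other ligands tested, 3 were lower in each stage. Sostdc1, a secreted inhibitor of Wnt and BMP signals, was higher in transition KCs, at 128 and 124 against 27.8 and 32.5 CPM (2.14 ± 0.18, adjusted p = 1.6e-09).

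Between the Sox4-high and H19-high states 8 genes of the list were higher and 1 lower, against 4.73% and 6.25% of all genes. The largest increase by log2 fold change was that of Lgr6, an R-spondin receptor of skin stem cells, at 48.5 and 59.9 against 3.34 and 8.24 CPM (3.02 ± 0.24, adjusted p = 1.6e-08). Lef1 (200 and 215 against 99.3 and 106 CPM) and Kremen2, a co-receptor of the DKK inhibitors (134 and 154 against 68.1 and 78.5 CPM), were also higher in the Sox4-high state, with adjusted p-values of 1.8e-04 and 0.0010. In S phase 2 were higher and 3 lower, against 9.26% and 4.03% of all genes. Those lower included the feedback target Axin2 (16.4 and 17.9 against 28.0 and 24.8 CPM, adjusted p = 0.0014). In G2/M 8 were higher and 10 lower, against 20.2% and 15.6% of all genes, with Sostdc1 at 416 and 384 CPM (3.61 ± 0.17, adjusted p = 5.2e-15).

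In the follicle sets, 26 genes of the list were higher and 14 lower than in resting basal KCs, against 27.4% and 24.5% of all genes. Among those called were all 5 tested genes of the R-spondin module, with Lgr5 at 52.3 and 42.6 against 0.572 and 1.497 CPM (SE of the log2 fold change 0.20, adjusted p = 4.5e-16). Shh-expressing cells had 16 genes higher and 12 lower than Tgfb2-led cells, against 13.4% and 13.8% of all genes. The target Sp5 (72.5 and 88.6 against 2.15 and 0.288 CPM), the inhibitor Wif1 (30.4 and 33.1 against 0.429 and 0.577 CPM) and Notum, which removes the lipid from Wnt proteins (13.6 and 12.1 against 0 and 0 CPM), were higher, with adjusted p-values of 2.2e-10, 5.1e-10 and 3.2e-06. Sostdc1 (59.7 and 65.4 against 839 and 652 CPM) and Lgr5 (27.9 and 22.8 against 76.8 and 62.3 CPM) were lower (adjusted p = 1.3e-12 and 3.9e-08). In the inner root sheath and hair shaft 17 were higher and 16 lower than in Tgfb2-led cells, against 19.1% and 20.4% of all genes, with Lef1 at 146 and 126 against 7.72 and 17.0 CPM (3.32 ± 0.22, adjusted p = 7.9e-12). Wif1 (12.03 and 6.93 CPM, adjusted p = 3.0e-06) and Notum (6.40 and 2.57 CPM, adjusted p = 5.3e-04) were also higher there. In the upper follicle 30 were higher and 16 lower than in resting basal KCs, against 30% and 23.5% of all genes, with Wnt11 at 17.6 and 6.37 against 0 and 0.381 CPM (adjusted p = 1.9e-08) and Sostdc1 at 532 and 666 CPM (4.15 ± 0.17, adjusted p = 4.3e-16).

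The 11 ligand genes of the annotation beside the 8 had few UMIs, apart from Wnt5b (864 and 1316), Wnt3a (384 and 736), Wnt7a (191 and 434) and Wnt11 (189 and 143). The highest count of any other was 59, for Wnt9b in mouse 2. Among these ligands, Wnt3a and Wnt7a had their highest levels in a resting basal state, at 19.5 and 10.3 CPM, and Wnt11 in the upper follicle, at 12.002 CPM.

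Across the 15 named KC classes, Wnt3 and Wnt10b (Pearson's r = 0.884) and Wnt3 and Wnt16 (0.876) were the ligand pairs most alike on a log2 scale, and Wnt5a and Wnt7b the least (-0.894). The neighbours Wnt6 and Wnt10a had r = 0.771. Among the 11065 genes compared, the gene most like Wnt3 was Kremen2 (0.974), that most like Wnt10b was Bmp2, a BMP ligand (0.962), and that most like Wnt6 was Lfng, a modifier of Notch receptors (0.972). Wnt16 was most like the noncoding C030014I23Rik (0.974) and then Sox6 (0.969), Wnt10a most like the secreted protease Htra1 (0.943), Wnt7b most like Fam81a (0.966), Wnt4 most like Nr6a1, a nuclear receptor (0.911), and Wnt5a most like Cxxc4, an intracellular inhibitor of Wnt signalling (0.955). Wnt5a averaged 66.4 CPM in the inner root sheath and hair shaft and no more than 3.92 CPM in the other classes. Its r values thus lean on that class and on low counts. The classes come from the same 2 libraries and differ in depth, so all of these values are descriptions and no test was made.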

How the data were processed

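Epidermal cells of 2 Chrm3 KO mice, 1 library each, were sequenced on the 10x Genomics Chromium platform. Its 3′ chemistry is given as version 1 in the labels and as version 3.1 in the study's methods. Reads were mapped to mm10 by Cell Ranger 3.0.2, and the authors deposited raw UMI counts of every called barcode, before any filter on cells.

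Barcodes with 900 to 7700 detected genes and less than 10% mitochondrial UMIs were retained, scored for doublets with Scrublet in scanpy 1.11.5 (threshold 0.25; called cells stayed in), integrated in Seurat 5.3.0 (2000 variable genes, 30 dimensions) and clustered at resolution 0.8. Clusters took names from marker lists, and the 88 genes of the Wnt lists entered neither step. Some limits of the naming were set after the clusters were seen, and a cluster with over 20% doublets stayed unnamed. The members, gene lists and comparisons were chosen with earlier results of these data known. All 8 ligands are named in every comparison, and of the pathway list up to 4 genes in each direction with the largest change.

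UMI counts were summed per mouse and class (at least 10 cells), giving 30 sums of 15 classes. They entered 1 edgeR 4.0.16 quasi-likelihood fit (R 4.3.3, TMM, filterByExpr, 12122 genes, Benjamini-Hochberg adjustment). The fit was tried on simulated sums drawn without a mouse effect, which cannot check how sums of the same mouse affect the p-values. No replicate block was used in this fit. Sums of a mouse share that animal: differences between the mice correlated between classes with r from 0.0104 to 0.303 (median 0.141, 105 pairs). The p-values rest on the spread between 2 mice, pooled over the 15 classes. The fit takes sums of the same mouse as independent. Intervals are exact 95% Poisson intervals and cover counting error only. Alternatives were the mouse as a block, no filter on low counts, DESeq2 1.42.0 or only its size factors, doublets left out, under 5% mitochondrial UMIs, resolution 1.2, cells thinned to 3000 UMIs, gates, each mouse alone and, added after seeing the data, plain library sizes.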

Additional observations from a re-analysis of the deposited data

How the results depend on the processing

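Of 72 pairs of ligand and comparison, 55 were called. Over all genes, the share called in 1 direction was between 4.03% (lower in S phase) and 31.1% (higher in differentiated KCs), by comparison. In 608 fits under the tested alternatives, 565 kept direction and side of the threshold, 17 lost a call, 17 gained one and 9 changed sign. Of the called pairs, 46 lost no call in any alternative fitted. All 110 folds of called pairs from 1 mouse alone kept their sign. The pairs were called from these same 2 mice, so the kept signs add no separate support. The number of ligands called was within 1.5 times the main one except in the basal states: between the Sox4-high and H19-high states it was 2, and 4 at resolution 1.2 and 1 with thinned cells, and in S phase it was 3, and 5 with the mouse as a replicate block and 6 at resolution 1.2. Only 1 sign change touched a called pair, Wnt7b in G2/M at resolution 1.2 (0.093). The others were Wnt5a at resolution 1.2 in transition KCs (0.56), between the basal states (0.0085) and in S phase (0.56), Wnt6 between the basal states with plain library sizes (0.049) and thinned cells (0.041) and in S phase at resolution 1.2 (-0.16), Wnt16 between the basal states with thinned cells (-0.073), and Wnt5a in Shh-expressing cells with thinned cells (-0.86). The cause was not tested.

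Counts of all genes called fell by over 1.5 times with thinned cells in every comparison (to between 522 and 3709), and the replicate block raised them from 1331 to 2371 between the basal states and from 1611 to 2525 in S phase, where resolution 1.2 gave 2491. With under 5% mitochondrial UMIs, 2150 genes in place of 3294 were called between the follicle sets. That limit could be applied only to the 2 comparisons within the follicle, since 9 H19-high cells remained in mouse 1. The block changed no other call of a ligand than those given in the report. Plain library sizes moved the median of all genes by over 0.1 on the log2 scale in 6 comparisons, most in the upper follicle (0.22). The granular comparison was not run. With 2 mice of 1 genotype, low-count ligands (Wnt5a, Wnt10b) limit what can be shown outside their highest classes.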
